A study of Mus musculus with 4 samples.

Results

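The migratory stem cell-like CD4 T cells of the small intestine were compared between mice that had lost the TGFβ receptor in cells with a history of *Il17a* expression and mice that had kept it. They were taken as every cell whose deposited cluster name is Migratory and whose cell name is that of TGFβR-KO or TGFβR-WT. They were 920 of the 5080 cells in the table. Of these, 831 were TGFβR-KO cells and 89 were TGFβR-WT cells. The names of the TGFβR-WT cells end in 2 different suffixes, with 73 cells in a larger and 16 cells in a smaller set, and nothing in the table ties a set to one or the other of the 2 TGFβR-WT samples. A further 52 migratory cells came from TGFβR-CA mice and are given beside the comparison.

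The small intestines of mice 7 to 8 months old, on a C57BL/6 background, were the source of all cells, which were sorted as YFP+ CD4+ TCRαβ+. All mice carried the *Il17a-cre* and a floxed-stop *yfp* at Rosa26, so that YFP marked a cell that had expressed *Il17a* at any time. TGFβR-KO mice also carried floxed *Tgfbr2* alleles, TGFβR-CA mice a constitutively active *Tgfbr1* behind a floxed stop, and TGFβR-WT mice were littermates with neither. Each of the 4 samples (1 TGFβR-KO, 2 TGFβR-WT and 1 TGFβR-CA) was a pool of mice, both sexes were used, and both mutations act only in cells that have switched on *Il17a*. One batch held the TGFβR-KO and a TGFβR-WT sample, the other held the TGFβR-CA and a TGFβR-WT sample. Because the sets cannot be tied to samples, batch and genotype cannot be told apart here.

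TGFβ binds the type II receptor TGFβR2, which recruits and phosphorylates TGFβR1, and the active pair phosphorylates SMAD2 and SMAD3, which enter the nucleus with SMAD4. Among the first genes that SMADs turn on are inhibitors of the pathway itself, such as *Smad7*, *Skil* and *Pmepa1*, which form a negative feedback. In intestinal T cells TGFβ also favors residence through the integrin αE encoded by *Itgae*, and restrains the T helper 1 (TH1) program. Migratory stem-like T cells keep *S1pr1*, the receptor that guides cells out of tissue along sphingosine-1-phosphate, and its activator *Klf2*.

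A level is given throughout per 10000 corrected unique molecular identifiers (UMIs), after adding up all cells of a genotype or set. The migratory cells held 3280442 corrected UMIs in TGFβR-KO, 270577 in the larger and 67589 in the smaller TGFβR-WT set, so that 3 UMIs, the floor used for a count of 0, correspond to a level of 0.00915, 0.111 and 0.444. The median per cell was 4004 corrected UMIs and 1592 detected genes in TGFβR-KO, 3788 and 1569 in the larger set, and 4379.5 and 1686 in the smaller set. Only 2 of the TGFβR-KO cells and none of the 89 TGFβR-WT cells had a barcode found in another library or set. There was 1 TGFβR-KO sample, so no test between genotypes was possible, no p-value is given, and differences are called by size. A gene was compared when the mean of its TGFβR-KO and pooled TGFβR-WT levels was at least 1, and passed the size rule with a ratio of at least 2 against the pooled cells and at least 1.5 in the same direction against each set.

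The 10 genes that the study names for this cluster were described next. They were named from these same cells, so they are no independent check of the cluster name. All 10 were higher in migratory than in other cells of TGFβR-KO and of the smaller TGFβR-WT set. In the larger set 8 were, the exceptions being the stem-like markers *Slamf6* (1.52 in migratory and 2.08 in other cells) and *Tcf7* (1.22 and 1.79). In TGFβR-KO *Tcf7* was nearly equal, at 0.933 in migratory and 0.9 in other cells. None of the 10 passed the size rule between the genotypes, which 1.68% of all compared genes did. *S1pr1* was at 2.62 in TGFβR-KO, 4.36 in the larger set and 1.92 in the smaller set, so that TGFβR-KO lay between the TGFβR-WT sets. *Klf2* was at 10.5, 9.42 and 7.84 in the same order. Its level in the other clusters pooled was 4.92 in TGFβR-KO, against 0.926 and 0.707 in the TGFβR-WT sets. By this pooled level migratory cells stood out less in TGFβR-KO, at 2.13 times, against 10.2 times (larger set) and 11.1 times (smaller set). The make-up of the other clusters differs between the genotypes. They held 361 Tumorigenic (*Klf2* at 13.5) and 321 cytotoxic (CTL) cells (6.17) in TGFβR-KO. Pooled TGFβR-WT held only 5 and 13 such cells. The part of this make-up in the pooled levels of *Klf2* and of later genes was not tested. *Il7r*, the receptor for the survival cytokine IL-7, was at 13.3, 15.9 and 8.43. *Itga4*, which pairs with β7 for entry into the gut, was at 6.31, 7.87 and 4.88. The calcium-binding protein gene *S100a4* differed most between the TGFβR-WT sets themselves, with 11.9 in TGFβR-KO, 10.1 in the larger set and 1.92 in the smaller set.

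Migratory cells made up 27.9% of the 2975 TGFβR-KO cells (exact Clopper-Pearson 95% interval 26.3 to 29.6), 10.3% of the larger TGFβR-WT set (8.16 to 12.8) and 5.37% of the smaller set (3.1 to 8.57). In TGFβR-CA the share was 4.74% (3.56 to 6.16). The TGFβR-KO share was thus 2.71-fold the share in the larger and 5.20-fold the share in the smaller set. Its interval did not overlap theirs. These and all later intervals hold counting error alone and leave out differences among mice and sorts.

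The receptor genes themselves gave no check of the deletion, since the libraries were 3′ libraries per the labels, whose reads come from the end of the transcript. *Tgfbr2* lies on mm10 chromosome 9 between 116084293 and 116175360, and the floxed exons are not given in the sources used here. Its level was 1.93 in TGFβR-KO migratory cells, 2.51 in the larger set and 1.33 in the smaller TGFβR-WT set. *Tgfbr1* was at 0.241, 0.333 and 2.52, a wider gap between the TGFβR-WT sets than between the larger set and TGFβR-KO. Of the signal transducers, *Smad4* was at 0.854, 0.924 and 0.444, *Smad2* at 0.402, 0.407 and 0.296, and *Smad3* at 0.338, 0.554 and 0.296. The ligand gene *Tgfb1* was at 1.02, 0.998 and 2.66. Of 24 listed pathway genes 19 were measured and 4 reached the level minimum, and none of those passed the size rule.

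Of the 10 negative-feedback genes of the pathway, *Smad7* passed the size rule as lower in TGFβR-KO migratory cells. A further 6 had their lowest level there, *Smurf1* among them on few UMIs. Of all compared genes, 33.2% were below both TGFβR-WT sets. No such share was computed for genes under the level minimum, where most of the 6 lay. The 10 genes were chosen with earlier results of these data known. *Smad7*, the inhibitory SMAD, on chromosome 18 from 75367529 to 75395935, was at 0.646 in TGFβR-KO, 1.74 in the larger set, 2.22 in the smaller set and 1.68 in TGFβR-CA. The pooled TGFβR-WT level was 2.84 times the TGFβR-KO level. The level of *Smad7* was alike in TGFβR-CA and the larger TGFβR-WT set, and that in TGFβR-KO lay below all of the others.

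The remaining feedback genes were mostly under the level minimum and are given as values with no call. *Ski*, a SMAD corepressor that reached the minimum, was at 0.948 in TGFβR-KO, 1.59 in the larger, 2.66 in the smaller set and 1.82 in TGFβR-CA, a ratio of 1.9 that missed the rule. *Skil*, which encodes the related corepressor SnoN, was at 0.247 (81 UMIs), 1.26, 2.07 and 1.58 in the same order. *Smurf2*, a ubiquitin ligase that marks the receptors for degradation together with SMAD7, was at 0.283, 0.961, 0.888 and 0.699. In each of these genes every group that kept the receptor was above TGFβR-KO. *Pmepa1*, which keeps SMAD2 and SMAD3 from the receptor, was at 0.0427 (14 UMIs in 831 cells), against 0.554 (15 UMIs in 73 cells), 1.48 (10 UMIs in 16 cells) and 0.932. *Ldlrad4*, of the same family, was at 0.113, 0.37, 1.18 and 1.12. The repressor genes *Tgif1* (0.168, 0.148, 0.296 and 0.466) and *Tgif2* (0.0427, 0, 0.296 and 0.0466) and the ligase gene *Smurf1* (0.0884, 0.148, 0.148 and 0.14) were low in each group, with 1 or 2 UMIs each in the smaller set. *Bambi*, a decoy receptor gene, had 1 UMI in TGFβR-KO and none in the others.

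**Figure D1:**
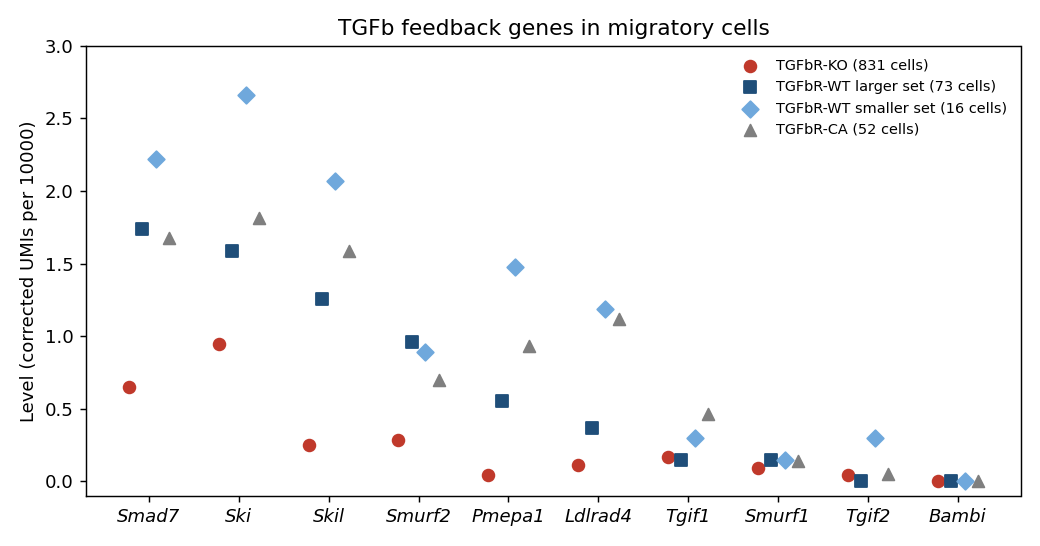
Levels of 10 TGFβ feedback genes in migratory cells, in corrected UMIs per 10000, with 1 point for each of TGFβR-KO, the 2 TGFβR-WT sets and TGFβR-CA and no error bars because each group is 1 sample or set. The TGFβR-KO point lies below all of the others for Smad7, Ski, Skil, Smurf2, Pmepa1, Ldlrad4 and Smurf1.

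Detection in single cells showed the same order. A *Smad7* UMI was found in 19% (16.4 to 21.8) of TGFβR-KO and 47.2% (36.5 to 58.1) of TGFβR-WT migratory cells, and a *Skil* UMI in 8.54% (6.73 to 10.7) and 36% (26.1 to 46.8). For *Pmepa1* the shares were 1.44% (0.748 to 2.51) and 22.5% (14.3 to 32.6), and for *Smurf2* 9.39% (7.49 to 11.6) and 31.5% (22 to 42.2). Thinned to 3000 corrected UMIs per cell, which no migratory cell of either genotype fell short of, the expected shares were 15.4% and 39.4% for *Smad7* and 1.15% and 18.5% for *Pmepa1*. At least 2 of the 10 feedback genes had a UMI in 179 of 831 TGFβR-KO cells, or 21.5% (18.8 to 24.5), in 44 of 73 cells of the larger set, or 60.3% (48.1 to 71.5), in 13 of 16 cells of the smaller set, or 81.3% (54.4 to 96.0), and in 63.5% of TGFβR-CA cells (49.0 to 76.4). None of the 10 had a UMI in 42.6% of TGFβR-KO cells, 9.59% of cells of the larger set and none of the 16 cells of the smaller set.

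Summed over the 10 feedback genes, the level in migratory cells was 2.58 in TGFβR-KO, 6.76 in the larger set, 11.2 in the smaller set and 8.48 in TGFβR-CA. The larger set was 2.62 and the smaller set 4.35 times TGFβR-KO. The same direction was seen in other clusters. In the Activated cluster, the sum was 3.24 in TGFβR-KO, 7.99 in the larger set and 13.3 in the smaller set, and in the germinal center follicular helper (GC-TFH) cluster 2.45, 6.53 and 8.11. It was 2.3, 4.8 and 6.82 in the TR-TFH cluster and 4.07, 5.71 and 7.13 in the Pre-tumorigenic cluster. TGFβR-KO was below both sets in each of these 5 clusters. In Cycling cells, with 41 and 4 cells in the sets, it was 1.58, 2.19 and 1.52, and TGFβR-KO was not below both. Differences between clusters were not tested.

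**Figure D2:**
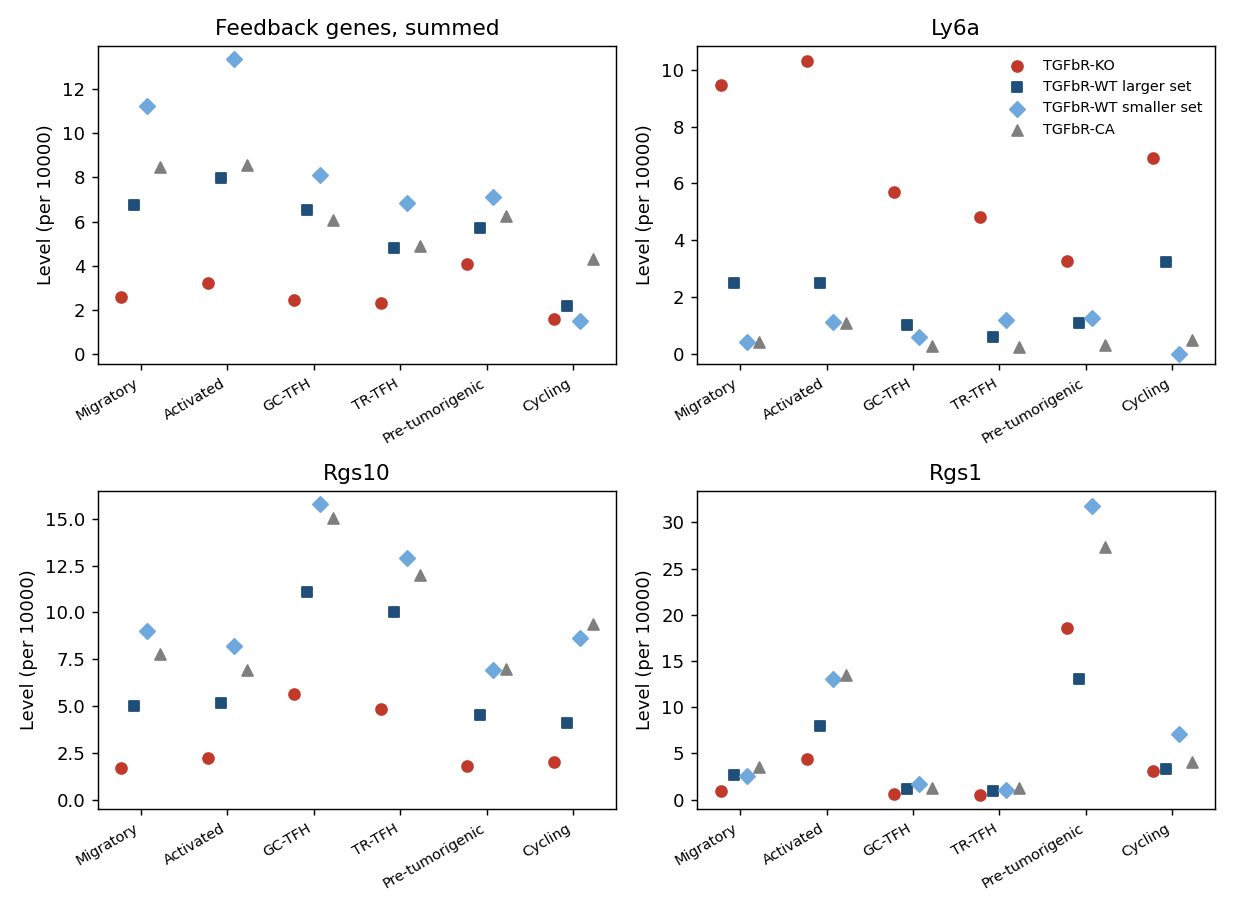
Levels in corrected UMIs per 10000 of the 10 feedback genes summed, and of Ly6a, Rgs10 and Rgs1, in the Migratory and 5 other clusters with more than 40 TGFβR-WT cells, with 1 point per genotype or TGFβR-WT set and no error bars. In migratory cells TGFβR-KO lies below every other group for the feedback sum, Rgs10 and Rgs1 and above every other group for Ly6a.

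Other genes known to respond to TGFβ differed in direction. *Itgae* was at 0.0335 in TGFβR-KO (11 UMIs in 831 cells), 0.148 in the larger set (4 UMIs), 1.33 in the smaller set (9 UMIs) and 0.14 in TGFβR-CA. A UMI was found in 1.2% (0.579 to 2.2) of TGFβR-KO and 8.99% (3.96 to 16.9) of TGFβR-WT cells. By set, it was found in 5.48% (1.51 to 13.4) of the larger and 25% (7.27 to 52.4) of the smaller set. The TGFβR-CA share was 3.85% (0.469 to 13.2). The intervals of the larger set and of TGFβR-CA overlapped that of TGFβR-KO. The share in TR-TFH cells was 0.771% in TGFβR-KO and 0.87% in TGFβR-WT at medians of 1328 and 1436 genes. In GC-TFH cells it was 0.629% and 2.01% at medians of 1567.5 and 1622 genes. The TGFβR-KO share in migratory cells was thus near background. *Id2*, which encodes an inhibitor of E-protein transcription factors, was at 13.5, 8.76, 1.78 and 3.07, higher in TGFβR-KO than in each other group but short of the rule at 1.84 times the pooled cells. *Cdkn1b*, a cell-cycle inhibitor gene, was at 1.19, 1.44 and 2.07, and *Junb* at 4.78, 6.28 and 5.62. Of 29 listed TGFβ response genes 26 were measured and 6 reached the level minimum, with a median log2 ratio of −0.38 against −0.06 over all compared genes. Of the 6, 1 passed the rule as lower, none as higher, and 5 were below both sets, against 33.2% of all compared genes.

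Across the 1552 of 13265 genes that reached the level minimum, 26 passed the size rule, or 1.68%. Only 2 of them (0.129%) were higher and 24 (1.55%) were lower in TGFβR-KO. Of the compared genes, 1416 (91.2%) were within 1.5-fold of the pooled TGFβR-WT level. The TGFβR-WT sets differed at least 2-fold from each other in 197 of these genes (12.7%), TGFβR-KO differed as much from the larger set in 29 (1.87%) and from the smaller set in 220 (14.2%). The smaller set, of 16 cells, was thus the one that stood apart. It also did so for *Xist*, a sex-linked gene of female cells. *Xist* was at 0 in TGFβR-KO and the larger set, 6.51 in the smaller set and 4.43 in TGFβR-CA. For *Ddx3y*, a gene of male cells, the log2 ratio of TGFβR-KO was −0.317 over the larger and 1.89 over the smaller set. By *Xist*, female cells were thus present in the smaller set but not seen in TGFβR-KO, so sex and genotype differ together there. The part of sex in the calls was not tested. Of the called genes with more than 3 UMIs in both sets, 12 differed between the sets by at least 1.5-fold and 4 of those by at least 2-fold. Without the smaller set 4 genes were higher and 23 lower, and without the larger set, with 16 cells left as reference, 73 and 163.

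**Figure D3:**
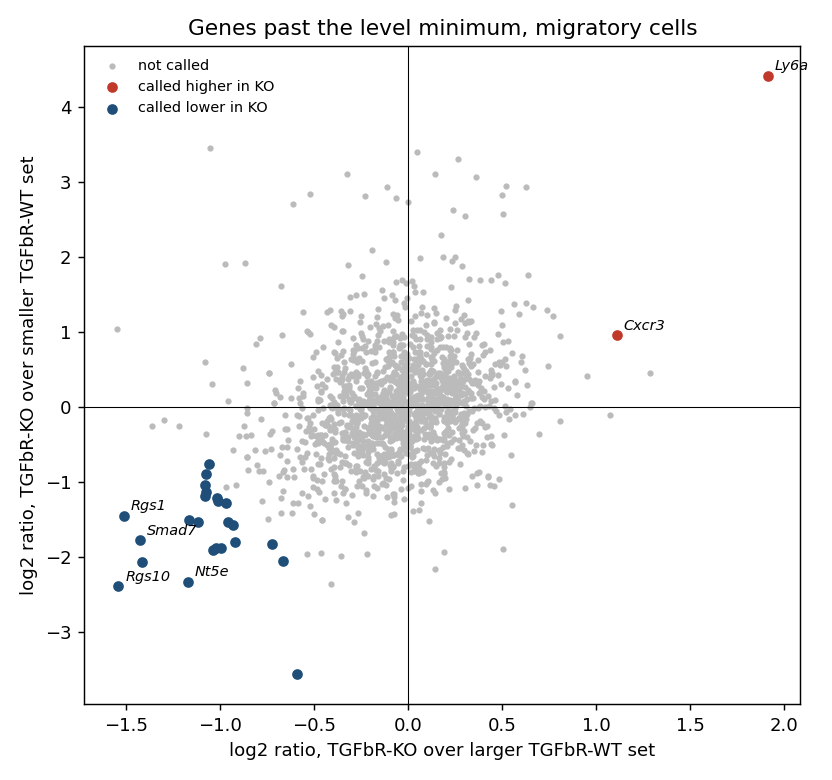
log2 ratio of the level in TGFβR-KO over the larger TGFβR-WT set (x axis) and over the smaller set (y axis) for the 1552 compared genes in migratory cells, 1 point per gene. The 24 genes called lower lie at the lower left, Ly6a and Cxcr3 are the 2 called higher, and the spread along the y axis, against the set of 16 cells, is the wider.

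*Ly6a*, the gene of the surface protein Sca-1, which interferons induce and which marks stem and memory-like cells, rose most. It is on chromosome 15 from 74994877 to 74998031. Its level was 9.47 in TGFβR-KO, 2.51 in the larger set, 0.444 in the smaller set (3 UMIs) and 0.419 in TGFβR-CA. TGFβR-KO was at 4.51 times the pooled TGFβR-WT level and 3.77 times the larger set. A UMI was found in 81.3% (78.5 to 83.9) of TGFβR-KO and 31.5% (22 to 42.2) of TGFβR-WT cells. The median cell held 3 *Ly6a* UMIs in TGFβR-KO and 0 in each other group, and 30.7% of TGFβR-KO cells held 5 or more, against 4 of 89 TGFβR-WT cells. The same direction was seen in every cluster with more than 40 TGFβR-WT cells, for example 10.3 against 2.52 and 1.14 in Activated cells.

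*Cxcr3*, on chromosome X from 101731535 to 101734269, encodes the receptor for the interferon-induced chemokines CXCL9 to CXCL11 and is typical of TH1 cells. It was at 1.44 in TGFβR-KO, 0.665 (18 UMIs) and 0.74 (5 UMIs) in the TGFβR-WT sets and 0.326 in TGFβR-CA. TGFβR-KO was above each of the others, at 2.11 times the pooled TGFβR-WT cells, close to the limit of 2, and a UMI was found in 35.4% (32.1 to 38.7) and 16.9% (9.75 to 26.3) of cells. In the other clusters pooled, whose make-up differs between the genotypes, *Cxcr3* was at 1.25 in TGFβR-KO, 0.309 and 0.436. Left without the cells that held a cycling marker, *Ifng* or *Gzmb*, or without the larger set, *Cxcr3* no longer passed the rule.

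Both genes that were higher belong to the interferon-response or TH1 lists, and no other member of these lists passed the rule. Of 10 compared interferon-response genes of 45 measured, *Ly6a* alone passed the rule, 8 were above both TGFβR-WT sets (26.7% of all compared genes were) and the median log2 ratio was 0.24. *Psmb8*, an immunoproteasome subunit gene, was at 8.82, 6.14 and 6.07, and *Ly6e* at 8.84, 6.8 and 6.95. Of 5 compared TH1 genes, *Cxcr3* passed, and *Stat4*, *Il18r1* and *Hopx* were among those that did not.

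Most TH1 and cytotoxic genes were under the level minimum in migratory cells. The level of *Ifng* was 0.835 in TGFβR-KO, 0.554 in the larger set, 0 in the smaller set and 0.0466 in TGFβR-CA. A UMI was found in 15.4% (13 to 18) of TGFβR-KO and 11.2% (5.52 to 19.7) of TGFβR-WT cells, intervals that overlap, against 8.81% of GC-TFH and 1.35% of TR-TFH cells of TGFβR-KO. *Tbx21*, the gene of the TH1 master regulator T-bet, was at 0.149 in TGFβR-KO and had 1 UMI in 89 TGFβR-WT cells. Its share of cells was 5.42% (3.98 to 7.18) in TGFβR-KO migratory cells, 5.03% (2.9 to 8.04) in GC-TFH and 1.35% (0.544 to 2.76) in TR-TFH cells of the same genotype. *Il18rap*, a subunit of the IL-18 receptor, was at 0.924, 0.296 (8 UMIs), 0.148 (1 UMI) and 0.14, with a UMI in 26% (23 to 29.1) of TGFβR-KO and 8.99% (3.96 to 16.9) of TGFβR-WT cells, intervals that do not overlap. In TR-TFH cells the shares were 6.36% and 2.39%. In GC-TFH cells they were 11.3% (8.06 to 15.3) and 4.02% (1.75 to 7.77), so TGFβR-KO was higher in these clusters too.

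The granzyme genes *Gzma* and *Gzmb* were at 0.488 and 0.405 in TGFβR-KO, and no UMI of either was found in the 89 TGFβR-WT migratory cells, which allows a share of up to 3.37% of cells with a UMI by the limit of 3 counts and up to 4.06% by the exact interval. The TGFβR-KO shares were 3.73% (2.55 to 5.25) and 7.1% (5.45 to 9.06). The *Gzmb* interval thus lay above the exact TGFβR-WT limit of 4.06%, and the *Gzma* interval overlapped it. For *Gzma* the shares in TGFβR-KO GC-TFH and TR-TFH cells, which should lack granzymes, were 3.46% (1.74 to 6.1) and 2.89% (1.63 to 4.72) at medians of 1567.5 and 1328 genes, and both intervals overlapped that of the migratory cells. For *Gzmb* they were 5.03% (2.9 to 8.04) and 0.578% (0.119 to 1.68), and only the GC-TFH interval overlapped that of the migratory cells. In TGFβR-WT, the *Gzma* shares were lower, at 0.503% of GC-TFH and 0.652% of TR-TFH cells. *Gzmb* had no UMI in 199 TGFβR-WT GC-TFH cells and a share of 0.652% in TR-TFH cells, where TGFβR-KO was not higher. *Nkg7*, a gene of cytotoxic granules, was at 0.82, 0.222, 0 and 0.0466. *Lamp1* was the only cytotoxic-list gene at the level minimum, at 1.5, 1.11 and 0.888.

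**Figure D4:**
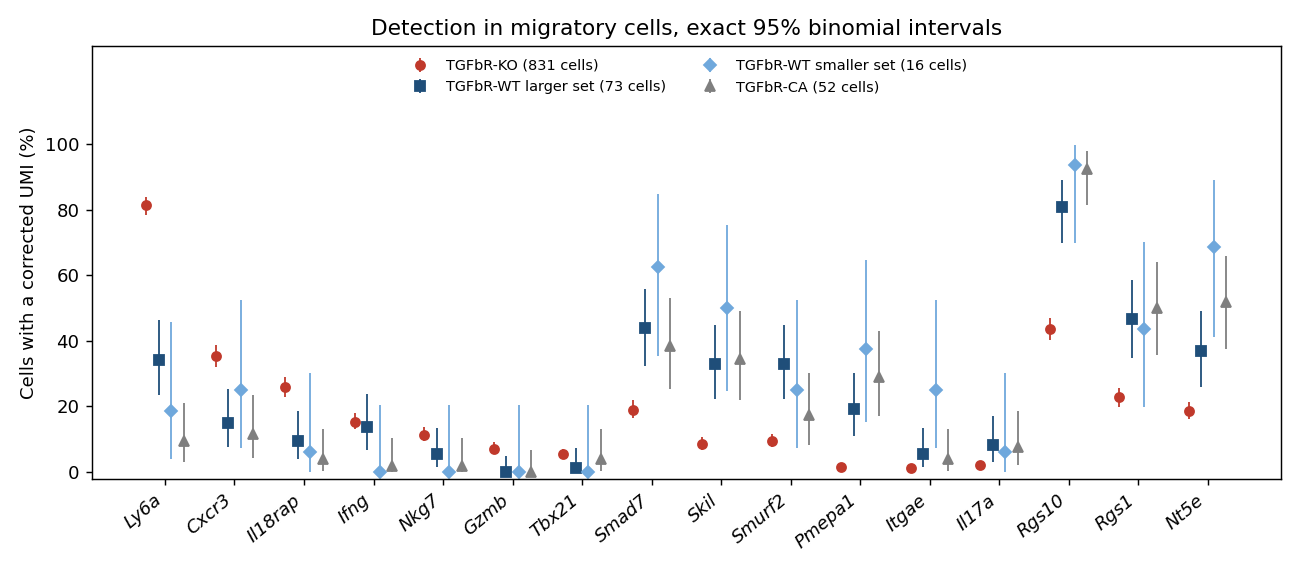
Share of migratory cells with at least 1 corrected UMI of 16 genes, in percent, for TGFβR-KO, the 2 TGFβR-WT sets and TGFβR-CA, with exact Clopper-Pearson 95% intervals for counting error. The TGFβR-KO interval lies above that of the larger TGFβR-WT set for Ly6a, Cxcr3, Il18rap and Gzmb. It lies below it for Smad7, Skil, Smurf2, Pmepa1, Rgs10, Rgs1 and Nt5e, and it overlaps the larger set for Ifng.

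The 24 genes that were lower had TGFβR-WT levels at least 2.01 times those of TGFβR-KO, with 3.38 times for *Rgs10*. In the other clusters pooled, 21 of the 24 were below both TGFβR-WT sets in TGFβR-KO, 13 of them by at least 1.5-fold against each set. The exceptions were *Rgs1*, *Ass1* and *Zcchc11*. The matching share over all compared genes was not computed for the other clusters, which hold cells of the same samples. These counts thus have no baseline and are no separate evidence. The make-up of the pooled clusters also differs between the genotypes. Whether the clusters differ was not tested.

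Regulators of G protein signaling led the genes that were lower. *Rgs10*, on chromosome 7 from 128373621 to 128418758, dampens chemokine receptor signals. It was at 1.72 in TGFβR-KO, 4.99 in the larger set, 9.03 in the smaller set and 7.78 in TGFβR-CA, and the pooled TGFβR-WT level was 3.38 times that of TGFβR-KO. A UMI was found in 43.7% (40.3 to 47.1) of TGFβR-KO and 83.1% (73.7 to 90.2) of TGFβR-WT cells. In the other clusters pooled, whose make-up differs between the genotypes, it was at 2.79 in TGFβR-KO, 8.83 and 11.7, a difference of the same direction. *Rgs1*, on chromosome 1 from 144242296 to 144249242, is known to hold T cells in the gut by damping their response to chemokines and sphingosine-1-phosphate. It was at 0.921 in TGFβR-KO, 2.62, 2.52 and 3.59, and the TGFβR-WT sets were nearly equal. The pooled TGFβR-WT level was 2.83 times that of TGFβR-KO. In the Pre-tumorigenic cluster *Rgs1* was at 18.6 in TGFβR-KO, between 13.1 and 31.8 in the TGFβR-WT sets. Among migratory cells with an *S1pr1* or *Klf2* UMI, *Rgs1* no longer passed the rule.

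*Nt5e* encodes CD73, which makes immunosuppressive adenosine. It was at 0.558 in TGFβR-KO, 1.26 in the larger set, 2.81 in the smaller set and 2.89 in TGFβR-CA, with a UMI in 18.7% (16.1 to 21.5) of TGFβR-KO and 42.7% (32.3 to 53.6) of TGFβR-WT cells. Without the smaller set its mean level was under the minimum. All other compared genes of the inhibitory-receptor list were also below both sets, as 33.2% of all compared genes were, without passing the rule. *Ctla4* was at 0.765, 1.22 and 1.78, and the regulators *Cd5* and *Cd6* were within 2-fold of each set. *Lag3*, under the level minimum, was at 0.259, 0.998, 1.33 and 2.33, with a UMI in 5.78% (4.29 to 7.59) of TGFβR-KO and 12.4% (6.33 to 21) of TGFβR-WT cells, so its detection intervals overlapped. *Icos*, a costimulatory receptor gene, was at 2.98, 5.1 and 7.1, 1.85 times as high in the pooled TGFβR-WT cells and short of the rule.

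The windows before the starts of *Rgs10* and *Nt5e*, which were lower in TGFβR-KO, and of the feedback gene *Smurf2* are shown because all 3 had lower levels in TGFβR-KO and SMADs bind the SMAD box CAGAC and GC-rich DNA. Sequences are from RefSeq on GRCm38.p6, the assembly also called mm10, read 5′ to 3′ on the strand of the gene. Each line gives the 250 bases before the start, with the SMAD box and the Sp box GGGCGG in capitals on either strand.
Rgs10 chr7:128418173-128418422, minus strand: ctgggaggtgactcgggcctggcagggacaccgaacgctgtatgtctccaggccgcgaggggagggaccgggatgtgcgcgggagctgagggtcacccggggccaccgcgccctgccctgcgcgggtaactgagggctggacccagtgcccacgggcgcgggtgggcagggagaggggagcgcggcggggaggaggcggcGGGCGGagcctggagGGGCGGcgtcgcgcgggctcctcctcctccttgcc
Nt5e chr9:88327359-88327608, plus strand: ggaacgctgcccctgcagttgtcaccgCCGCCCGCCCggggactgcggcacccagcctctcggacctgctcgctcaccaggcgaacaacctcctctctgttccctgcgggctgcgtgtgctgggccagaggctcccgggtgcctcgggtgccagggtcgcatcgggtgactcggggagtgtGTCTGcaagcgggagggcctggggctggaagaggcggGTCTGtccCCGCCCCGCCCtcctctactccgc
Smurf2 chr11:106920716-106920965, minus strand: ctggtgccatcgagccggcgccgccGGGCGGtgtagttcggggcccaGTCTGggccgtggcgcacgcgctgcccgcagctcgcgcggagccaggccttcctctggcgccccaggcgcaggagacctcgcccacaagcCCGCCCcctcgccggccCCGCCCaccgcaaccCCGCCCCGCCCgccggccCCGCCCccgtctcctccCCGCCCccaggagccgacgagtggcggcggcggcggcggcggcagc
The *Rgs10* window held no SMAD box and 2 Sp boxes, that of *Nt5e* 2 SMAD boxes and 4 Sp boxes, and that of *Smurf2* 1 and 7, with some Sp boxes overlapping. In windows that also include the 50 bases after the start, 18 of the 24 genes that were lower matched 23 windows, of which 11 (47.8%) held a SMAD box, against 49.6% of all 32851 windows. The palindrome GTCTAGAC and the T-box TCACACCT were found in none of the 23, against 0.213% and 1.28% of all windows. The boxes CACCC, which KLF factors bind, and GGGCGG were in 16 (69.6%) and 18 (78.3%) of the 23, against 57.5% and 35.7% of all. Windows of 1 gene may overlap, the motif letters may lie within one another, and no test was made. All windows also include those of genes under the level minimum, which could not be called. The shares over the 1552 compared genes alone were not computed, so these figures do not show an excess among the genes that were lower. The only matched window of the genes that were higher, that of *Cxcr3*, held none of these motifs.

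Other genes that were lower had varied roles. *Ass1*, which encodes argininosuccinate synthase of arginine synthesis, was at 0.939 in TGFβR-KO, 2.11, 2.66 and 1.91. In the other clusters pooled, whose make-up differs between the genotypes, it was at 0.552, 0.492 and 1.18. TGFβR-KO thus lay between the sets there. *Aqp3*, a water and glycerol channel gene of the TH17 list, was at 0.716, 1.55, 2.07 and 1.68. *Crmp1* was at 0.527, 1.4, 2.22 and 1.54. In each of these, the lowest of the groups with the receptor was more than 2-fold above TGFβR-KO. *Capg*, which encodes an actin-capping protein, was at 1.14, 2.33, 4.29 and 4.05, and the metalloproteinase inhibitor gene *Timp2* at 1.63, 3.1, 4.88 and 4.7. *Ctss*, the gene of the protease cathepsin S, was at 0.802, 1.52, 2.81 and 1.68. These had TGFβR-CA near or within the range of the TGFβR-WT sets. *Chd3*, a chromatin remodeler gene, was at 1.69, 3.36 and 6.21, *Pdcd4*, which encodes an inhibitor of translation, at 1.52, 2.96 and 3.7, and *Bcl2a1d*, an antiapoptotic NF-κB target, at 0.869, 1.81 and 1.48. *Bcl2a1d* has near-identical copies, so its reads may be shared among them. The rest of those that passed were *Psen2*, *Ssh2*, *Sec61g*, *Tma7*, *AU020206*, *Gramd1a*, *Mllt3* and *Zcchc11*, with TGFβR-KO levels of 0.646 to 1.51. *Crmp1*, *Timp2*, *Ctss*, *Chd3*, *Pdcd4* and *Mllt3* no longer passed without the smaller TGFβR-WT set, and *Bcl2a1d*, *Sec61g* and *Zcchc11* no longer passed without the larger set.

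Some calls rested on how high the smaller TGFβR-WT set was. *Ppia*, the gene of cyclophilin A, was at 3.57 in TGFβR-KO, 5.65 in the larger set, 14.8 in the smaller set and 11 in TGFβR-CA, and so differed 2.62-fold between the TGFβR-WT sets. In the same order, *Cd52*, a lymphocyte surface protein gene, was at 3.36, 5.54, 12 and 8.15. The larger set was above TGFβR-KO by 1.59-fold for *Ppia* and 1.65-fold for *Cd52*, so that neither passed without the smaller set. *Ppia* has processed pseudogenes that may share its reads.

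**Figure D5:**
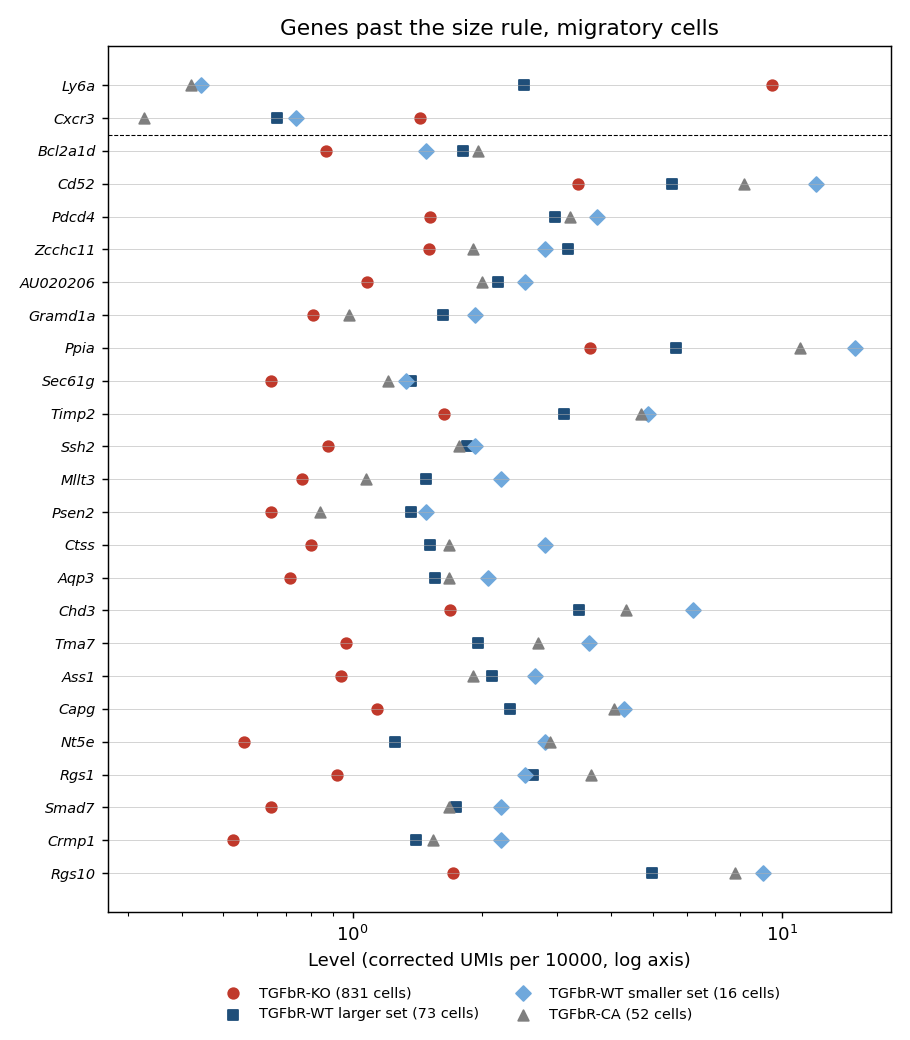
Levels, in corrected UMIs per 10000 on a log axis, of 25 genes that passed the size rule in migratory cells, 1 point per genotype or TGFβR-WT set, with no error bars. Ly6a and Cxcr3, above the dashed line, are the 2 that were higher in TGFβR-KO, and for the 23 below it the TGFβR-KO point is the leftmost.

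Programs of residence, egress and stemness were then described from the gene lists. Of 5 compared tissue-retention genes, *Ly6a* was higher and *Rgs1* lower by the rule. *Cxcr6*, a receptor typical of resident T cells, was at 5.74 in TGFβR-KO, 3.88, 2.22 and 1.12, above each other group but short of the rule, and *Runx3* was at 1.74, 2.07 and 1.92. None of 8 compared egress genes passed. *S1pr4* was at 2.13, 1.74 and 1.48, and *Foxo1*, which sustains *Klf2* and *Il7r*, at 1.15, 1.96 and 2.07. None of 14 compared stemness and quiescence genes passed either, although 8 were below both sets, against 33.2% of all compared genes. Among these were *Tcf7* (0.933, 1.22 and 1.78), *Slamf6* (1.37, 1.52 and 2.81), *Lef1* (1.18, 1.26 and 2.07) and the antiproliferative *Btg1* (20.02, 27.5 and 25.9). *Satb1* was above both (2.78, 2.25 and 1.18).

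Of 13 compared TH17 genes, only *Aqp3* passed the rule, as lower, and the median log2 ratio was 0.10. Of the 13, 5 were above and 4 below both sets, against 26.7% and 33.2% of all compared genes. *Ccr6* was at 3.26 in TGFβR-KO, 3.7 and 3.55 in the sets, and *Maf*, which TGFβ is known to support, at 9.66, 12.9, 15.8 and 23. The cytokine genes were rarely detected. *Il17a* was at 0.0549 in TGFβR-KO (18 UMIs), 0.85 in the larger set (23 UMIs in 6 cells), 0.148 in the smaller set (1 UMI) and 0.233 in TGFβR-CA, and the shares of cells with a UMI, 2.17% (1.29 to 3.4) and 7.87% (3.22 to 15.5), overlapped in their intervals. *Il22* was at 0.82, 0.407 (11 UMIs), 0.148 (1 UMI) and 0.14, with shares of 20.8% (18.1 to 23.7) in TGFβR-KO and 7.87% (3.22 to 15.5) in TGFβR-WT, intervals that do not overlap. In TR-TFH cells the shares for *Il22* were 5.97% and 6.74%. In GC-TFH cells they were 15.1% (11.3 to 19.5) and 11.6% (7.47 to 16.8). The GC-TFH interval of TGFβR-KO overlapped that of its migratory cells. The shares for *Il17a* were 1.93% and 1.74% in TR-TFH cells and 7.86% and 6.53% in GC-TFH cells.

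Genes of T cell receptor signaling and NF-κB lay on the low side in TGFβR-KO. All 5 compared genes of each list were below both TGFβR-WT sets, against 33.2% of all compared genes. None of the receptor-signaling genes passed the rule (median log2 ratio −0.48), and of the NF-κB genes *Bcl2a1d* did (−0.59). The immediate-early gene *Egr1*, of the receptor-signaling list, was at 1.31, 3.22 and 1.48. *Fos*, in neither list, was at 1.61, 4.14 and 1.92. For both genes TGFβR-KO was nearer to the smaller than to the larger set. *Klf6*, also in neither list, was at 1.56, 1.77 and 1.92. *Fos*, *Egr1* and *Klf6* are among 42 listed immediate-early, heat shock and dissociation-induced genes, of which 24 were compared and none passed. Of the 24, 3 were above both sets, against 26.7% of all compared genes, and 13 were below both, against 33.2%. The part of dissociation in these values was not tested.

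The other lists held few calls. Of 16 compared S100, annexin and galectin-list genes, *Capg* and *Cd52* were lower. Without passing, 10 genes, *S100a4* and *S100a6* among them, were above both sets, against 26.7% of all compared genes. *Capg* was also the call among 2 compared regulatory T cell genes, beside *Ctla4*, and *Cxcr3* the call among 7 gut-homing genes. No call was made among 6 follicular helper genes (median log2 ratio −0.39), 35 actin genes (−0.05), 11 MHC class I genes (0.15), 4 KLF genes (−0.0049), 8 cytokine receptor genes (−0.05), 2 SOCS and PIM genes (−0.32) or 10 genes of solute transport and glycolysis (0.01).

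Ribosomal protein genes made up 29.6% of corrected UMIs in TGFβR-KO migratory cells, 26.5% in the larger set, 26.3% in the smaller set and 26.4% in TGFβR-CA. Of 92 such genes 53 were above and 10 below both TGFβR-WT sets, against 26.7% and 33.2% of all compared genes. None of the 81 at the level minimum passed the rule, and their median log2 ratio was 0.17. Because levels are shares of a total, this larger share lowers those of other genes slightly. The mitochondrial share was 0.95%, 1.01%, 0.889% and 0.511% in the same order.

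Markers of other cell types were mostly near 0, apart from those of regulatory T cells. The 10 regulatory T cell markers summed to 3.14 in TGFβR-KO, 5.06 in the larger set, 7.99 in the smaller set and 8.38 in TGFβR-CA. Of these, 2, 4, 4 and 4 were at 0. Of 19 measured epithelial markers the summed level was 0.219 in TGFβR-KO, 0.185 in the larger set and 0.444 in the smaller set, with 7, 16 and 17 markers at 0. For 7 γδ T cell markers the sums were 0.155, 0.0739 and 0.444 with 4, 6 and 6 at 0, for 2 CD8 markers 0.0305, 0.0739 and 0 with 1, 1 and 2 at 0, and for 8 innate lymphoid and NK markers 0.96, 1.33 and 1.18 with 2, 5 and 7 at 0. The 11 B and plasma cell markers were lower in TGFβR-KO (0.235) than in the sets (0.998 and 1.48), with 4, 5 and 8 at 0. The 10 myeloid markers summed to 2.3, 2.11 and 1.92, nearly all of it *Cst3*, which T cells also express, with 1, 7 and 8 at 0. The 10 genes of αβ CD4 T cells summed to 104, 107 and 99.1, and none was at 0. Of 27 cycling markers the sums were 17.6, 18.6 and 16.1, with 0, 5 and 11 at 0. Apart from the regulatory T cell list, with *Capg*, none of these lists held a gene that passed the rule. Their part in the results was not tested.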

How the data were processed

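The deposited table holds 13265 genes in 5080 cells. According to the study's methods, the authors aligned reads with Cell Ranger (3.1.0 in the submitters' processing notes) to mm10, kept cells with 1000 to 5000 genes and under 10% mitochondrial reads, normalized with SCTransform in Seurat, integrated on 3000 features and clustered with 10 dimensions at resolution 0.5, and removed γδ T and epithelial cells. No doublet removal is stated in the sources used here. Each deposited value is a natural log, taken of the SCTransform-corrected UMI number plus 1. Undone with expm1, they were whole numbers within 1e-06, but remain model-corrected, so count tests were not used, and the original depth is unknown.

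Levels per 10000 were summed over cells, with a set at 0 valued at 3 corrected UMIs. A gene could pass as lower only if both TGFβR-WT sets held a UMI, a condition added after the data were seen. Named genes are, by rule, the 12 called each way with the largest change, ranked on whichever set ratio is smaller (sex-linked and V segment genes apart), called list members, the 10 migratory markers, *Tgfbr1*, *Tgfbr2*, *Smad7*, *Pmepa1*, *Itgae*, *Ifng*, *Tbx21*, *Il17a* and *Klf6*. Some genes are not reported here. All others were named after their values were seen. The members, the 33 gene lists and the feedback group were chosen with earlier results of these data known. Of 78 T cell receptor V segment genes none reached the level minimum. Gene positions come from GENCODE vM21 on GRCm38, matched by symbol for 25 of the 26 genes that passed. Alternatives changed the level minimum, fold, denominator, centring, averaging, TGFβR-WT set and cells. Analyses used Python 3.11.15, numpy 2.4.6, scipy 1.17.1, pandas 2.3.3 and matplotlib 3.10.9.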

Additional observations from a re-analysis of the deposited data

How the results depend on the processing

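With the smaller or the larger TGFβR-WT set left out, 4 to 73 genes were higher and 23 to 163 lower, and without the larger set only the 16 cells of the smaller set served as reference. Without the smaller set, 14 of the 24 genes that were lower still passed (among the others were *Chd3*, *Timp2*, *Ppia*, *Pdcd4*, *Ctss*, *Mllt3*, *Cd52*, *Crmp1* and *Nt5e*, the last pair because their mean level fell under 1). A level minimum of 0.5 gave 11 higher and 56 lower, one of 2 gave 1 and 8, and none gave 41 and 533. A fold of 1.5 gave 12 and 50, one of 3 gave 1 and 2, with *Ly6a* and *Rgs10* among them. A total without ribosomal, mitochondrial and the 50 most abundant genes gave 6 higher genes and 25 lower, with 15 of the 24 shared. Cells with *S1pr1* or *Klf2* gave 4 higher, and cells without cycling markers, *Ifng* and *Gzmb* gave 1. Centring the ratios on their median kept both higher genes and 19 of the 24. The migratory share ratio was 2.71 to 5.20 and the feedback ratio 2.62 to 4.35 when a set was left out, and 3.01 without *Smad7*. The excess of ribosomal UMIs, 3.17 points, was 3.40 without the 5% of cells with most genes. No named gene that passed the rule changed direction in the alternatives run. No paired analysis was possible because there is 1 TGFβR-KO sample and neither set of TGFβR-WT cells has a known sample. The condition on sets at 0, the feedback and the ribosomal alternatives were chosen after seeing the data.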
